A study of Mus musculus with 24 samples.

Results

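The core circadian clock of the mouse liver was examined through 10 genes: Arntl, Clock, Per1, Per2, Per3, Cry1, Cry2, Nr1d1, Nr1d2 and Dbp. They were chosen by name, with earlier results of these data known. Every array probe that carries 1 of these gene names was taken, which gave 25 probes for the 10 genes out of 37074 gene names on the array. Of the 25 probes, 23 passed the filter on dim signal, so all 10 genes were tested among 21331 genes. The data are 24 single-colour arrays, 1 for each of 24 male C57Bl/6J mice.

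The mice fell into 4 groups of 6. LWT mice express the nuclear receptor PPARα in hepatocytes and LKO mice do not, as the series title states; the promoter that drives the deletion and the age of the mice are not given in the sources used here. Mice of each genotype received by gavage either 3 mg/kg of CL316243, which activates beta3 adrenergic receptors, or the carrier alone, 0.5% carboxymethyl cellulose (vehicle). All 24 were kept on a 12 h light and 12 h dark cycle with free access to a standard diet. Gavage was at Zeitgeber time (ZT) 10 h, where lights come on at ZT 0 h and go off at ZT 12 h. Livers were taken at ZT 16 h, 6 h after gavage and 4 h into the dark. With 1 time of day sampled, a change in a rhythmic gene's mean level and a shift in its timing cannot be told apart.

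The clock is a feedback loop of transcription. ARNTL (also called BMAL1) and CLOCK form a dimer that binds E-box elements and activates the Per, Cry, Nr1d and Dbp genes. PER and CRY proteins inhibit that dimer, while NR1D1 and NR1D2 (REV-ERBα and REV-ERBβ) repress Arntl. DBP is a PAR bZIP factor that binds D-box elements and drives daily programmes of liver metabolism. In the liver Dbp and Arntl peak at nearly opposite times of day.

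The elements of this loop can be read in the upstream sequence of some of these genes. RefSeq promoters of build GRCm38.p6 were found for 9 of the 10 genes, as 13 start sites; Per2 was not matched. The 250 bases before each start were searched on both strands for the E-box CACGTG, the E-prime box CACGTT, the D-boxes TTATGTAA and TTACGTAA, the ROR and REV-ERB core TAGGTCA and the cAMP element TGACGTCA. None of these overlaps another in the promoters shown. The promoters with the E-box or D-box are printed because they show the 2 element types that link the genes to ARNTL and to DBP, and that of Nr1d1 because its level differed most between genotypes. Each is written 5′ to 3′ on the gene's own strand, with matches on either strand in capitals; AACGTG is the E-prime box read on the other strand.
Per3, chr4:151044666-151044915, minus strand: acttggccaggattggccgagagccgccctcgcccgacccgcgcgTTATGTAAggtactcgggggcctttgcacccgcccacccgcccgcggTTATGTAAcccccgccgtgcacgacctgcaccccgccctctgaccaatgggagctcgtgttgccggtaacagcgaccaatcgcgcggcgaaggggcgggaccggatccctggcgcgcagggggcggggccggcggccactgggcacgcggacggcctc
Per1, chr11:69098699-69098948, plus strand: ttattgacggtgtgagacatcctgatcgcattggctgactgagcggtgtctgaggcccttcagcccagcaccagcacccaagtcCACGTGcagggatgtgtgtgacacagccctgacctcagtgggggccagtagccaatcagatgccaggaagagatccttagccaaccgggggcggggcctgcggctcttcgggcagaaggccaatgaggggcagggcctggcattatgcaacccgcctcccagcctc
Cry1, chr10:85185055-85185304, minus strand: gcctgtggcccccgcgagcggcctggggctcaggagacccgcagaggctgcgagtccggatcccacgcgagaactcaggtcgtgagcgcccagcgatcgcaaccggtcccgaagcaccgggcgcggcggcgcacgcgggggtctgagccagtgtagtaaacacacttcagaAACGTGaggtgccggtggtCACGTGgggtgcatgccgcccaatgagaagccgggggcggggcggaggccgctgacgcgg
Nr1d1, chr11:98775378-98775627, minus strand: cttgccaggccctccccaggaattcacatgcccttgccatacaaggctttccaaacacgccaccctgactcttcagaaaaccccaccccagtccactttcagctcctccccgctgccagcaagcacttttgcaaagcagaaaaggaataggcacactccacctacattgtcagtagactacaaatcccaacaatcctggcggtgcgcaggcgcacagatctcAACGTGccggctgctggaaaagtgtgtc

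Per3 held the D-box TTATGTAA at 2 places, at -205 to -198 and -158 to -151 from the start. That sequence occurred in 0.819% of 32851 promoters of the same length, and TTACGTAA in 0.113%. The E-box, present in 6.02% of promoters, was found at -166 to -161 of Per1 and at -60 to -55 of Cry1. The E-prime box, present in 3.85%, was found at -79 to -74 of Cry1, -166 to -161 of Cry2 and -28 to -23 of Nr1d1. No member held the ROR and REV-ERB core (2.23% of promoters) or the cAMP element (1.55%) in this window. Arntl, Clock, Nr1d2 and Dbp held none of these exact sequences there. Variant forms of an element, and elements at or beyond the edges of the window, were not searched.

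Levels are log2 processed intensities minus the array's 75th percentile, so they compare mice for 1 probe and not 1 gene with another. A gene was called when its adjusted p (limma, Benjamini-Hochberg over 21331 genes) was under 0.05. For a difference between 2 groups of 6 mice, the standard error over genes had a median of 0.13 on the log2 scale. Across arrays, 26985 to 34202 of 56605 probes were well above background. Ppara, checked first, had means (SD, n = 6) in LWT of 5.68 ± 0.16 with vehicle and 6.23 ± 0.27 with CL316243, and in LKO of 5.01 ± 0.15 and 4.32 ± 0.64. The LKO mice lay below the LWT mice under both treatments. Under vehicle the difference was -0.68 (adjusted p = 0.158) and under CL316243 it was -1.91 (adjusted p = 3.6e-07); whether the probe lies in the deleted part was not given in the sources used here.

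The library of LKO CL316243 replicate 3 stood apart from the rest. Its root mean square log2 distance from other arrays was 0.725, against 0.276 to 0.487 for the other 23. It also had the highest summed neutrophil marker level of all arrays, 5.56 on the log2 scale, in a group whose range began at 1.76. The ranges were 0.868 to 2.34 in LWT vehicle, 0.952 to 3.74 in LWT CL316243 and 0.977 to 1.65 in LKO vehicle. S100a8, S100a9 and Retnlg rose with CL316243 in both genotypes. The fourth neutrophil marker, Ly6g, went the other way: it was called lower in LWT (-0.38) and was not called in LKO (-0.28). Of 4 cholangiocyte markers, Sox9 alone was called in either response, higher by 1.47 in LWT and 2.18 in LKO. Krt19, Krt7 and Epcam had differences of -0.53, -0.02 and -0.07 in LWT and of 0.25, -0.23 and 0.76 in LKO. The summed level of the 4 was -0.77 to 0.33 and -0.11 to 1.53 in LWT with vehicle and with CL316243, and -0.61 to 0.30 and 0.47 to 2.52 in LKO. None of these markers was below background on every array. The 6 hepatocyte markers had a summed level of 10.8 to 11.3, with all 4 groups overlapping, and 0 of 6 Kupffer cell markers changed. In whole liver, fewer cells of a type and less RNA per cell cannot be told apart. The part of these neutrophil and cholangiocyte marker levels in the clock results was not tested, and values without that library are given where it changes a call.

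With CL316243, clock genes changed in both genotypes. In LWT livers 6 of 10 were called, 2 higher (Arntl and Clock) and 4 lower (Per2, Per3, Cry2 and Dbp). Among all genes 38.3% were called, 18.9% higher and 19.4% lower, so the share of clock genes called was above but not far from the background. In LKO livers 4 of 10 were called, Arntl higher and Per3, Nr1d1 and Dbp lower, against 40.3% of all genes (20.9% higher and 19.4% lower), a share at the background. The LWT count fell to 3 without LWT vehicle replicate 4 or LWT CL316243 replicate 5. The LKO count fell to 2 without replicate 1, 2 or 4 of the vehicle mice, or replicate 2, 3 or 5 of those given CL316243. With no filter on dim probes the counts were 3 and 2. The median absolute log2 difference of the 10 genes was 0.56 in LWT and 0.52 in LKO, against 0.25 and 0.26 over all genes. Their signed medians of -0.10 and -0.14, against 0.01 and 0.03 over all genes, hid rises and falls of different members.

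**Figure D1:**
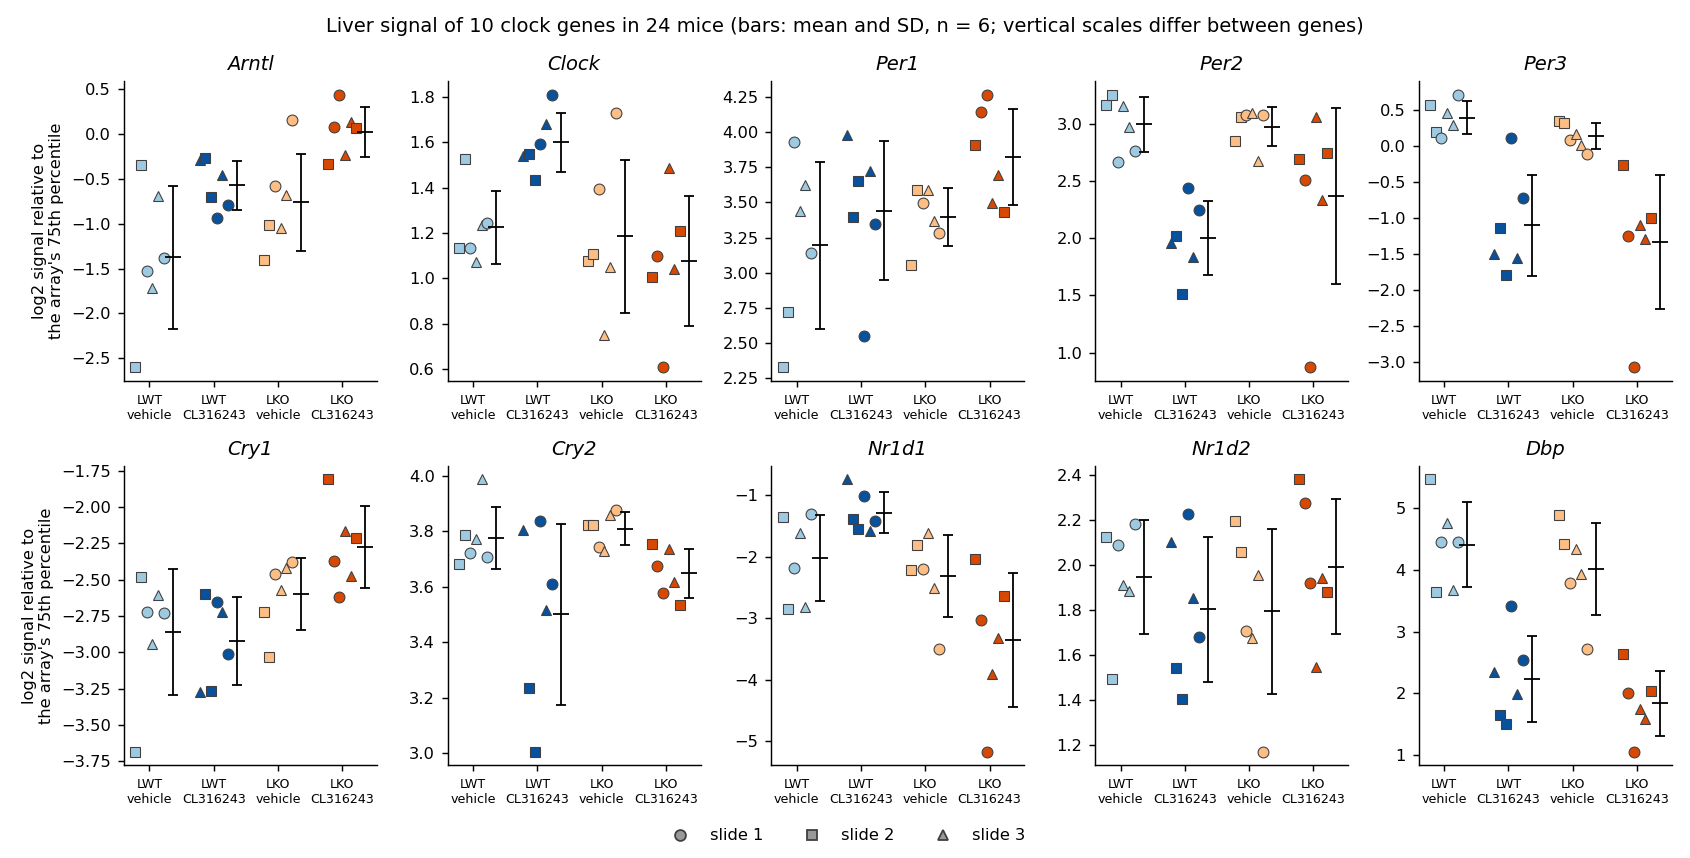
Level of each clock gene in each of 24 mice, as log2 signal minus the 75th percentile of that array, in 4 groups of 6; point shapes mark the 3 slides, and bars show the mean and SD. Dbp, Per3 and, in LWT, Per2 lie lower with CL316243 without overlap for the probe plotted, and Nr1d1 separates LKO from LWT mice under CL316243.

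Dbp, the D-box activator and an output of the loop, fell the most. In LWT vehicle livers the lowest, median and highest levels were 3.64, 4.44 and 5.46, and with CL316243 they were 1.5, 2.17 and 3.41. In LKO livers they were 2.71, 4.12 and 4.88 with vehicle and 1.06, 1.87 and 2.64 with CL316243. No treated mouse reached the lowest vehicle mouse of its genotype, though in LKO the gap was only from 2.64 to 2.71. Dbp fell by 2.16 on the log2 scale in each genotype, a level 4.47 times lower in LWT (95% interval -2.92 to -1.40, adjusted p = 7.9e-05) and 4.48 times lower in LKO (-2.93 to -1.40, adjusted p = 8.2e-05). Without LKO CL316243 replicate 3 the LKO difference was -2.01. The interaction, which tests whether the response differed between genotypes, was -0.0043 with an interval of -1.08 to 1.07. Differences in response within those bounds were not excluded.

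Per3, a period gene of the repressor arm, fell by 1.49 in LWT and 1.47 in LKO. Its lowest, median and highest levels were 0.12, 0.37 and 0.72 in LWT vehicle livers and -1.79, -1.32 and 0.12 in LWT CL316243 livers. They were -0.11, 0.13 and 0.35 in LKO vehicle livers and -3.07, -1.17 and -0.26 in LKO CL316243 livers. The groups did not overlap in either genotype, but in LWT the margin was below the second decimal, since replicate 4 of the treated mice stood at 0.12. The falls were 2.81 times in LWT (adjusted p = 0.0011) and 2.76 times in LKO (adjusted p = 0.0013). Leaving out LKO CL316243 replicate 3, at -3.07, gave a LKO difference of -1.12 (adjusted p = 0.0015). The interaction was 0.02 (interval -0.95 to 1.0).

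Per2, which like Per1 and Per3 encodes an inhibitor of the ARNTL and CLOCK dimer, fell by 0.99 in LWT. Its levels ran from 2.67 through a median of 3.06 to 3.26 in LWT vehicle livers and from 1.51 through 1.99 to 2.44 in LWT CL316243 livers, without overlap (1.99 times lower, adjusted p = 0.0027). In LKO they ran from 2.68 through 3.07 to 3.09 with vehicle and from 0.87 through 2.60 to 3.06 with CL316243, and the groups overlapped. The LKO difference was -0.61 and did not pass the test (adjusted p = 0.053). It passed in 6 of 12 alternatives, at -0.60 with normexp background (adjusted p = 0.042) and with the series table (adjusted p = 0.0498), at -0.52 with the mean of both probes (0.022) and at -0.42 with array weights (0.032). With -0.61 it passed with the replicate block (0.022) and with a variance trend (0.047). Without LKO CL316243 replicate 3, at 0.87, the LKO difference was -0.31 (adjusted p = 0.120), and the response differed between genotypes by 0.69 (adjusted p = 0.049). With all mice that interaction was 0.39 (adjusted p = 0.621). Under CL316243, LKO minus LWT was then 0.67 (adjusted p = 0.0032), against 0.37 (adjusted p = 0.364) with all mice. Leaving out LKO vehicle replicate 5, or LKO CL316243 replicate 1, 4 or 6, brought the LKO difference past the threshold, at -0.67 to -0.74.

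Per1, the period gene that hormones and cAMP are known to induce acutely, was not called in any comparison when all 4 groups were fitted together. In LWT its levels were 2.33 to 3.93 (median 3.29) with vehicle and 2.55 to 3.98 (3.53) with CL316243. In LKO they were 3.06 to 3.59 (3.43) with vehicle and 3.43 to 4.27 (3.80) with CL316243. All 4 groups overlapped their neighbours. The difference was 0.24 in LWT (interval -0.25 to 0.74) and 0.43 in LKO (-0.07 to 0.93), and neither interval excludes 0. By slide the LWT difference was -0.58, 1.0 and 0.32, with both signs. In LKO it was 0.81, 0.35 and 0.12.

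The cryptochromes, partners of the PER proteins, gave small differences. In LWT, Cry1 ran from -3.69 to -2.48 with vehicle (median -2.73) and from -3.27 to -2.60 with CL316243 (median -2.87). In LKO the same ranges were -3.03 to -2.38 (median -2.52) and -2.62 to -1.81 (median -2.29), and all overlapped. Its response was -0.06 in LWT and 0.33 in LKO, neither called. Under CL316243 it was higher in LKO than in LWT by 0.65 (1.57 times, interval 0.27 to 1.02, adjusted p = 0.016), with all 6 LKO mice above the LWT mean. With normexp background that difference was 0.39, still called. Cry2 ran from 3.68 to 3.99 (median 3.75) in LWT vehicle and, overlapping it, from 3.01 to 3.84 (median 3.56) in LWT CL316243, a fall of 0.27 (1.21 times, adjusted p = 0.042). In LKO it ran from 3.73 to 3.88 (median 3.82) with vehicle and from 3.53 to 3.75 (median 3.65) with CL316243, a difference of -0.16 (adjusted p = 0.233). The LWT call of Cry2 was lost without LWT vehicle replicate 2, 4 or 5 or LWT CL316243 replicate 2, 3 or 5, when the difference was -0.18 to -0.28 (adjusted p = 0.060 to 0.124), and in a fit of the 2 LWT groups alone (adjusted p = 0.129).

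Of the activator genes, Arntl rose in both genotypes. It increased by 0.81 in LWT (1.75 times, adjusted p = 0.030) and by 0.79 in LKO (1.73 times, adjusted p = 0.032). Its lowest, median and highest levels were -2.60, -1.46 and -0.34 in LWT vehicle livers and -0.93, -0.57 and -0.26 in LWT CL316243 livers. In LKO they were -1.40, -0.85 and 0.16 with vehicle and -0.33, 0.07 and 0.44 with CL316243. Vehicle mice were more scattered (SD 0.80 and 0.54) than treated mice (0.28 in both), a contrast that was not tested, and the groups overlapped in both genotypes. Both calls depended on single mice. In LWT the call was lost without vehicle replicate 1, 3 or 4 or CL316243 replicate 1, 2 or 5 (0.56 to 0.78, adjusted p = 0.052 to 0.092). In LKO it was lost without vehicle replicate 1, 2 or 4 or CL316243 replicate 2, 3 or 5 (0.66 to 0.78, adjusted p = 0.053 to 0.083). Without LKO CL316243 replicate 3 the LKO difference was 0.70 (adjusted p = 0.073). With the mean of its 3 probes in place of the brightest, the differences were 0.39 in LWT (adjusted p = 0.284) and 0.58 in LKO (adjusted p = 0.100).

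Clock rose in LWT by 0.38 (1.3 times, adjusted p = 0.035), while its LKO difference was -0.11 (adjusted p = 0.553). LWT levels ran from 1.07 to 1.53 (median 1.19) with vehicle and from 1.43 to 1.81 (median 1.57) with CL316243. LKO levels were more scattered, from 0.75 to 1.73 (median 1.09) and from 0.61 to 1.49 (median 1.07), and the groups overlapped in both genotypes. Whether the 2 responses differed was tested directly, and the interaction of -0.49 did not pass (adjusted p = 0.170). Under CL316243, however, Clock was lower in LKO than in LWT by 0.53 on the log2 scale (1.44 times, adjusted p = 0.010) and each of the 6 LKO mice stood below the mean of the LWT mice. Without LKO CL316243 replicate 3 that difference was -0.43 (adjusted p = 0.025). The LWT rise lost its call without LWT vehicle replicate 1, 3, 4, 5 or 6 or LWT CL316243 replicate 5 or 6 (0.33 to 0.38, adjusted p = 0.050 to 0.076), and also with quantile normalization (0.35, adjusted p = 0.054).

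Nr1d1, the repressor of Arntl and a direct target of the ARNTL and CLOCK dimer, gave the widest genotype difference of the 10 genes. It is read by a single probe, shown here because the result rests on it alone; it spans 503 bases of build mm9 at chr11:98630526-98631028 with a length of 60, so it crosses an intron.
Nr1d1 probe: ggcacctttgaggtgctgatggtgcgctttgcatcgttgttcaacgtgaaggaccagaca
Its levels ran from -2.84 through a median of -1.90 to -1.29 in LWT vehicle livers and from -1.58 through -1.40 to -0.74 in LWT CL316243 livers. In LKO they ran from -3.50 through -2.21 to -1.60 with vehicle and from -5.17 through -3.17 to -2.03 with CL316243. Under CL316243 no LKO mouse reached the lowest LWT mouse. LKO minus LWT was -2.07 there, a level 4.20 times lower (interval -2.92 to -1.22, adjusted p = 0.00099), and -0.29 under vehicle (adjusted p = 0.992). With normexp background it was -1.18 under CL316243 (adjusted p = 0.00028), and with the series table -1.45 (adjusted p = 0.00038), both still called. The difference under CL316243 was -2.88, -0.88 and -2.45 on the 3 slides.

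The response of Nr1d1 to CL316243 was 0.74 in LWT (interval -0.12 to 1.59, adjusted p = 0.169) and -1.04 in LKO (2.06 times lower, adjusted p = 0.047). The 2 differ by -1.78 (interval -2.99 to -0.57), which did not pass over all genes (adjusted p = 0.081). It passed without LKO vehicle replicate 6 (-2.02, adjusted p = 0.038) or LKO CL316243 replicate 1 (-2.04, adjusted p = 0.034). On 5 of 6 LKO CL316243 arrays, and on all arrays of the other groups, this probe was well above background. The LKO fall lost its call more often than any other call on the 10 genes when mice were left out singly. Without LKO CL316243 replicate 3, at -5.17, it was -0.68 (adjusted p = 0.143), and leaving out any of 16 of the 24 mice ended the call, at adjusted p = 0.051 to 0.143. Those 16 were LWT vehicle replicates 3 and 4, LWT CL316243 replicates 2 to 6, LKO vehicle replicates 1 to 5 and LKO CL316243 replicates 2 to 5. With normexp background correction the LKO difference was -0.47 (adjusted p = 0.080). The genotype difference under CL316243 kept its call without each mouse, and without LKO CL316243 replicate 3 it was -1.71 (adjusted p = 0.0015).

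Nr1d2, the paralogue of Nr1d1, was not called in any comparison. In LWT it ran from 1.49 to 2.18 (median 2.0) with vehicle and from 1.40 to 2.23 (median 1.77) with CL316243. In LKO it ran from 1.17 to 2.20 (median 1.83) and from 1.55 to 2.38 (median 1.93), so all ranges overlapped. Its response was -0.15 in LWT (interval -0.51 to 0.22) and 0.20 in LKO (-0.16 to 0.56). A fall as large as that of Dbp or Per3 lies outside both intervals.

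**Figure D2:**
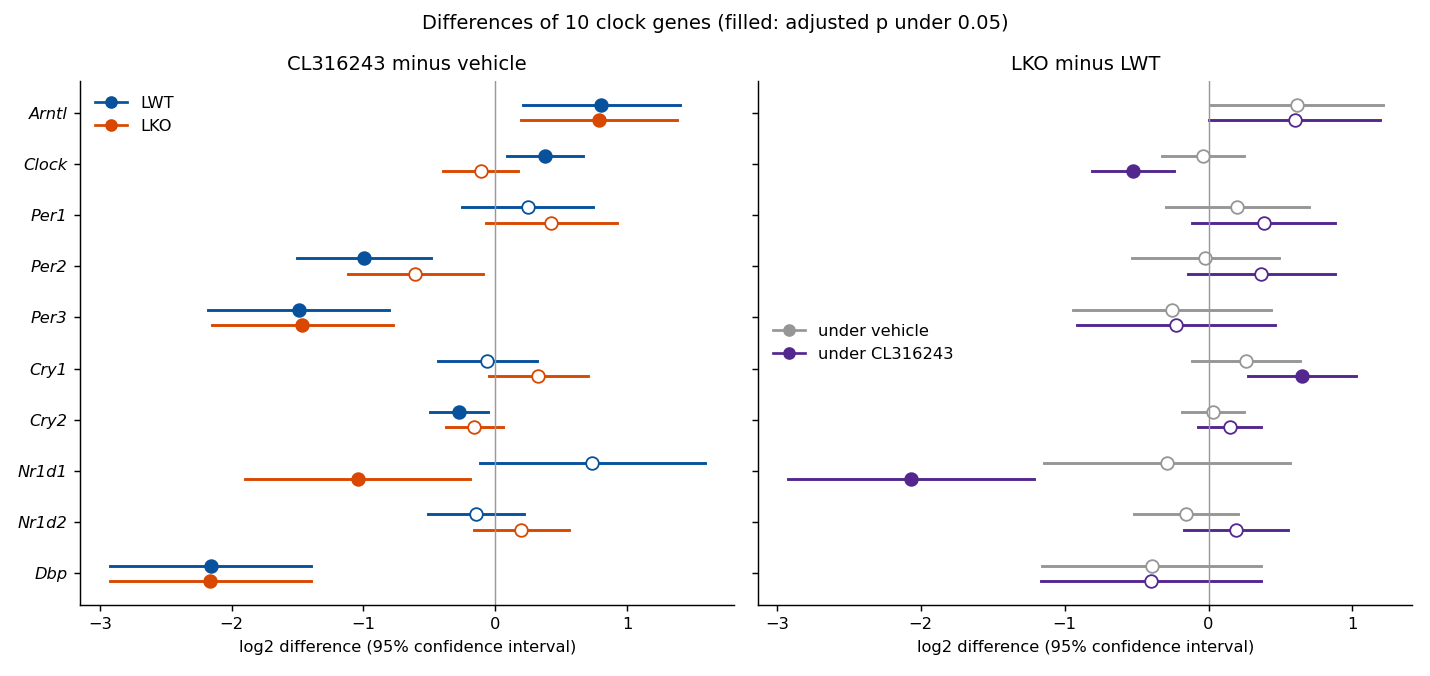
Log2 differences of the 10 clock genes with 95% confidence intervals from limma, for CL316243 minus vehicle in each genotype (left) and LKO minus LWT under each treatment (right); filled points have an adjusted p under 0.05. Dbp and Per3 show like falls in LWT and LKO, while Nr1d1, Clock and Cry1 differ between genotypes under CL316243.

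Loss of hepatocyte PPARα without the agonist left no clock gene called. Under vehicle 0 of 10 differed between LKO and LWT, where 1.18% of all genes were called; Arntl had the only unadjusted interval clear of 0, at 0.62 (0.02 to 1.21, adjusted p = 0.592). No member passed the interaction test either (0 of 10, against 5.41% of all genes), while 2 had an unadjusted limma p under 0.05, Clock and Nr1d1. The count called for the interaction was 1 without LKO vehicle replicate 6, LKO CL316243 replicate 1 or LKO CL316243 replicate 3. Under CL316243 3 of 10 differed between genotypes, Cry1 higher and Clock and Nr1d1 lower, against 15.9% of all genes (7.74% higher and 8.17% lower). This comparison shares its mice with the 2 responses, so the values are not separate evidence. Groups without overlap numbered 3 of 10 for the LWT response, 2 of 10 for the LKO response and 1 of 10 for the genotype difference under CL316243. The same held for 20.4%, 20.8% and 6.57% of all genes.

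Ordering the 4 group means showed which neighbours were separated. For Dbp and Per3, LWT vehicle stood highest, then LKO vehicle, LWT CL316243 and LKO CL316243. Only the step from LKO vehicle to LWT CL316243 passed the test, at 1.76 for Dbp (adjusted p = 0.00052) and 1.24 for Per3 (adjusted p = 0.0046). Arntl had the reverse order, and none of its 3 steps passed. For Nr1d1 the order was LWT CL316243, LWT vehicle, LKO vehicle and LKO CL316243, with only the last step (1.04) past the test, and for Clock only the step from LWT CL316243 to LWT vehicle (0.38) passed. No step passed for Per1, Per2, Cry1, Cry2 or Nr1d2.

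Where a gene had several probes, they were compared at the probe level, where 37.6% of 32037 probes were called for the LWT response, 41% for the LKO response, 5.96% for the interaction and 15.4% for the genotype difference under CL316243. All 3 probes of Per3 fell in both genotypes, with differences of -1.56 to -1.46 in LWT and -1.80 to -1.47 in LKO. The dimmest, A_66_P135046, was well above background on 6 LWT and 5 LKO vehicle arrays, but on only 3 and 2 CL316243 arrays. It passed the filter through the vehicle groups alone, so its fall is no support for the other Per3 probes. Both probes of Dbp fell in both genotypes as well, with differences of -2.08 and -2.16 in LWT and -2.14 and -2.16 in LKO. The absence of overlap given above holds for the brightest probe of each gene. The groups overlapped in both genotypes for the second Dbp probe, A_51_P180492, and in LKO for the Per3 probe A_66_P135046. For the dimmer Per2 probe, A_52_P536869, the LWT groups overlapped.

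Clock differed by probe. The probe with the highest signal (A_55_P2746404, build mm9 chr5:76639992-76640051) rose by 0.38 in LWT, but A_52_P334670 (chr5:76641377-76641436) rose by 0.87 (adjusted p = 1.3e-05) and A_52_P279391 (chr5:76664578-76664637) by 0.75 (adjusted p = 0.00015). In these last 2 the LWT groups did not overlap. The mean of the 3 rose by 0.67 in LWT. In LKO the 3 probes gave -0.11, 0.38 and 0.04, of which only 0.38 was called. The interaction was -0.49, -0.49 and -0.71, and passed for A_52_P279391 (adjusted p = 0.027). All 3 probes were lower in LKO than in LWT under CL316243, by 0.53, 0.54 and 0.63 on the log2 scale. The fourth Clock probe, A_55_P2741789, was too dim to pass the filter.

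Cry2 also depended on the probe. Its brightest probe was called in LWT alone, whereas A_55_P1953708 fell by 0.47 in LWT and 0.33 in LKO and A_55_P2721990 by 0.56 and 0.44, all called. With the mean of the 3 probes Cry2 had differences of -0.43 in LWT and -0.31 in LKO, both called. Cry1's second probe, A_55_P2880103, was like the first in being called only for the genotype difference under CL316243 (0.69, adjusted p = 0.030). Arntl's 2 dimmer probes were not called: A_55_P2735445 gave 0.12 in LWT and 0.29 in LKO, and A_66_P127371 gave 0.26 and 0.66. The dimmer probe of Per2, A_52_P536869, was called in LKO (-0.43, adjusted p = 0.030) but not in LWT (-0.37, adjusted p = 0.063). The 3 probes of Nr1d2 were not called in any of the 5 comparisons, and the second Per1 probe, A_55_P2019327, did not pass the filter.

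**Figure D3:**
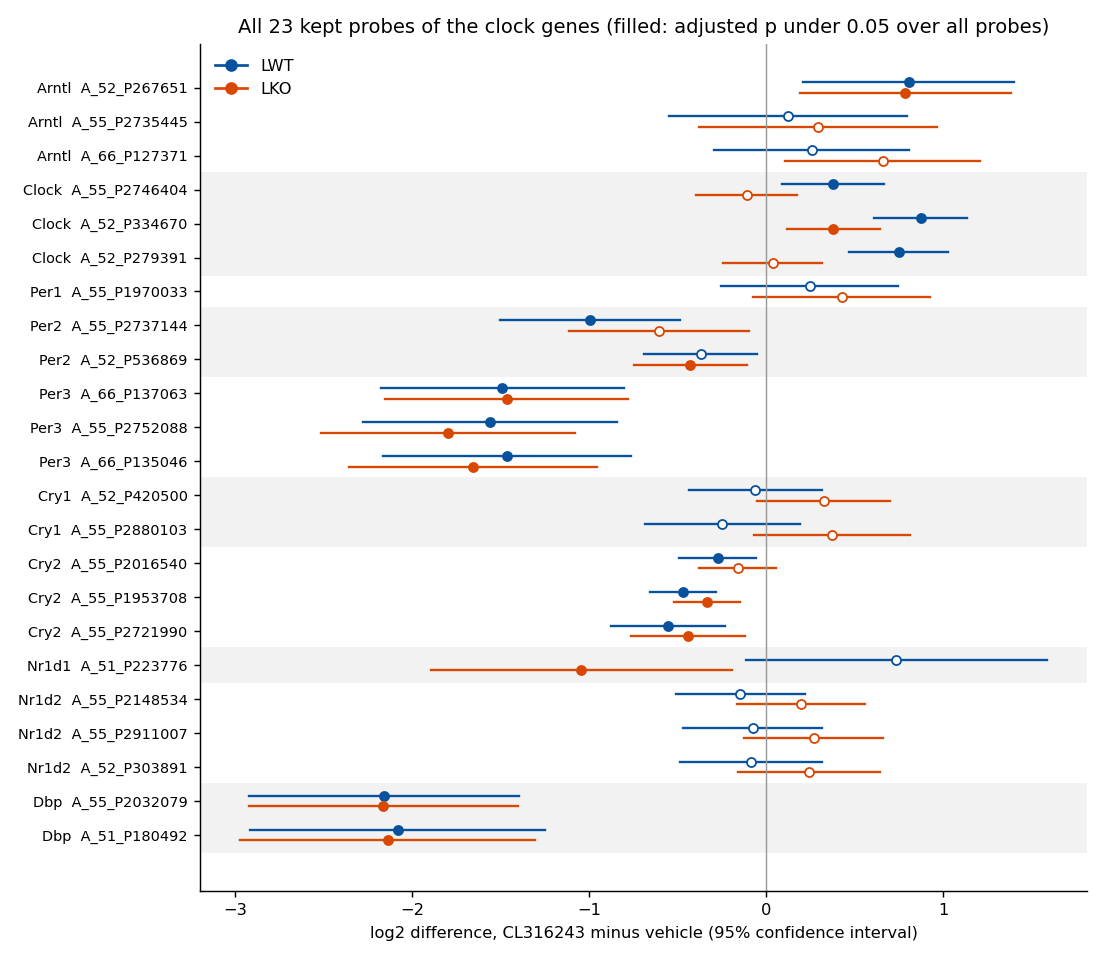
CL316243 minus vehicle, as a log2 difference with its 95% confidence interval, for each of the 23 kept probes of the clock genes, in LWT and LKO; filled points have an adjusted p under 0.05 over all kept probes. All probes of Per3 and Dbp fell in both genotypes, while the probes of Clock, Cry2 and Arntl differed in size. The Per3 probe A_66_P135046 passed the filter through the vehicle groups alone.

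The same mice were then compared within groups, which asks whether clock genes vary together between mice that had the same genotype and treatment. Deviations from the group mean were correlated over 24 mice for all 45 pairs, with permutation p-values within groups adjusted over the 45. Of these, 13 pairs passed, 7 positive and 6 negative. Both genes of a pair are read on the same array and share its scaling. Of the 13 pairs, 11 also passed by rank.

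Arntl and Dbp were the most tightly linked pair, in opposite directions. Pearson's r of the deviations was -0.85 and Spearman's rho -0.87 (permutation p = 1e-05, the smallest the resamples can give, and 2e-05; adjusted 0.00023 and 0.0009). Without the 2 mice farthest from the median Arntl level r was -0.84. Within the groups of 6 it was -0.99 in LWT vehicle, -0.998 in LKO vehicle, -0.60 in LWT CL316243 and -0.82 in LKO CL316243. By slide it was -0.94, -0.83 and -0.81. LWT vehicle replicate 1 shows the pattern at its extreme, with the lowest Arntl (-2.60) and the highest Dbp (5.46) of all 24 mice. LKO CL316243 replicate 3 had the highest Arntl (0.44) and the lowest Dbp (1.06). LKO vehicle replicate 6 had an Arntl level of 0.16 and a Dbp level of 2.71, among the values of treated mice for Arntl.

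Other pairs around Dbp and the repressors followed. Nr1d1 rose and fell with Dbp (r = 0.75, rho = 0.75, permutation p = 3e-05 and 0.0001, adjusted 0.00045 and 0.0015), and so did Nr1d2 (r = 0.77, rho = 0.68, permutation p = 9e-05 and 0.00096, adjusted 0.0010 and 0.0086). Per3 also varied with Dbp (r = 0.68, rho = 0.72, permutation p = 1e-05 and 6e-05, adjusted 0.00023 and 0.0014). Without the 2 farthest mice these were 0.73, 0.66 and 0.62. By slide, r for Nr1d1 and Dbp was 0.72, 0.77 and 0.86, but on slide 3 it was only 0.08 for Nr1d2 and Dbp and 0.17 for Per3 and Dbp, so these last 2 relations did not hold within that slide. Nr1d1 opposed Arntl (r = -0.62, rho = -0.57, permutation p = 0.00075 and 0.0078, adjusted 0.0048 and 0.033; -0.59 without the 2 farthest mice). On the 3 slides that r was -0.69, -0.63 and -0.49. Within groups it was -0.83 in LWT vehicle, -0.83 in LKO vehicle and -0.68 in LKO CL316243, but 0.12 in LWT CL316243.

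Of the other pairs that passed, Nr1d1 varied with Per3 (r = 0.69, rho = 0.60, adjusted permutation p = 0.0035 and 0.010) and with Nr1d2 (r = 0.59, rho = 0.55, adjusted 0.015 and 0.033). Without the 2 farthest mice these were 0.58 and 0.64, and on slide 3 they were -0.073 and 0.37. Arntl opposed Per3 (r = -0.43, rho = -0.66, adjusted permutation p = 0.0035 and 0.0043), with r of -0.59, -0.32 and -0.53 by slide. Arntl with Nr1d2 (r = -0.53) and Clock with Per2 (r = 0.59) passed for r but not by rank (adjusted permutation p = 0.092 and 0.060). On slide 3 the r of Arntl and Nr1d2 was 0.43, the opposite sign.

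Per2 and Per3 varied together overall (r = 0.81, rho = 0.68, permutation p = 0.0023 and 0.0024, adjusted 0.013 and 0.016). Here the value varied by group. Within LWT CL316243 and LKO CL316243 livers r was 0.93 and 0.90, and within LWT vehicle and LKO vehicle livers it was 0.03 and -0.02. Without the 2 farthest mice r was 0.67, and without LKO CL316243 replicate 3 alone it was 0.55, which did not pass (adjusted permutation p = 0.076). Per1 ran against both, with r of -0.50 for Per2 and -0.53 for Per3 (rho -0.58 and -0.60, adjusted permutation p = 0.015 and 0.018 for r); without the 2 farthest mice these were -0.48 and -0.42. On slide 2 the r of Per1 and Per3 was -0.059, so that relation did not hold there. Within LKO vehicle livers r was 0.49 for Per1 and Per2, the opposite sign, and -0.04 for Per1 and Per3. Within the other groups it was -0.66 to -0.73 for Per1 and Per2 and -0.46 to -0.93 for Per1 and Per3. Whether the correlations within groups of 6 differ between groups was not tested.

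**Figure D4:**
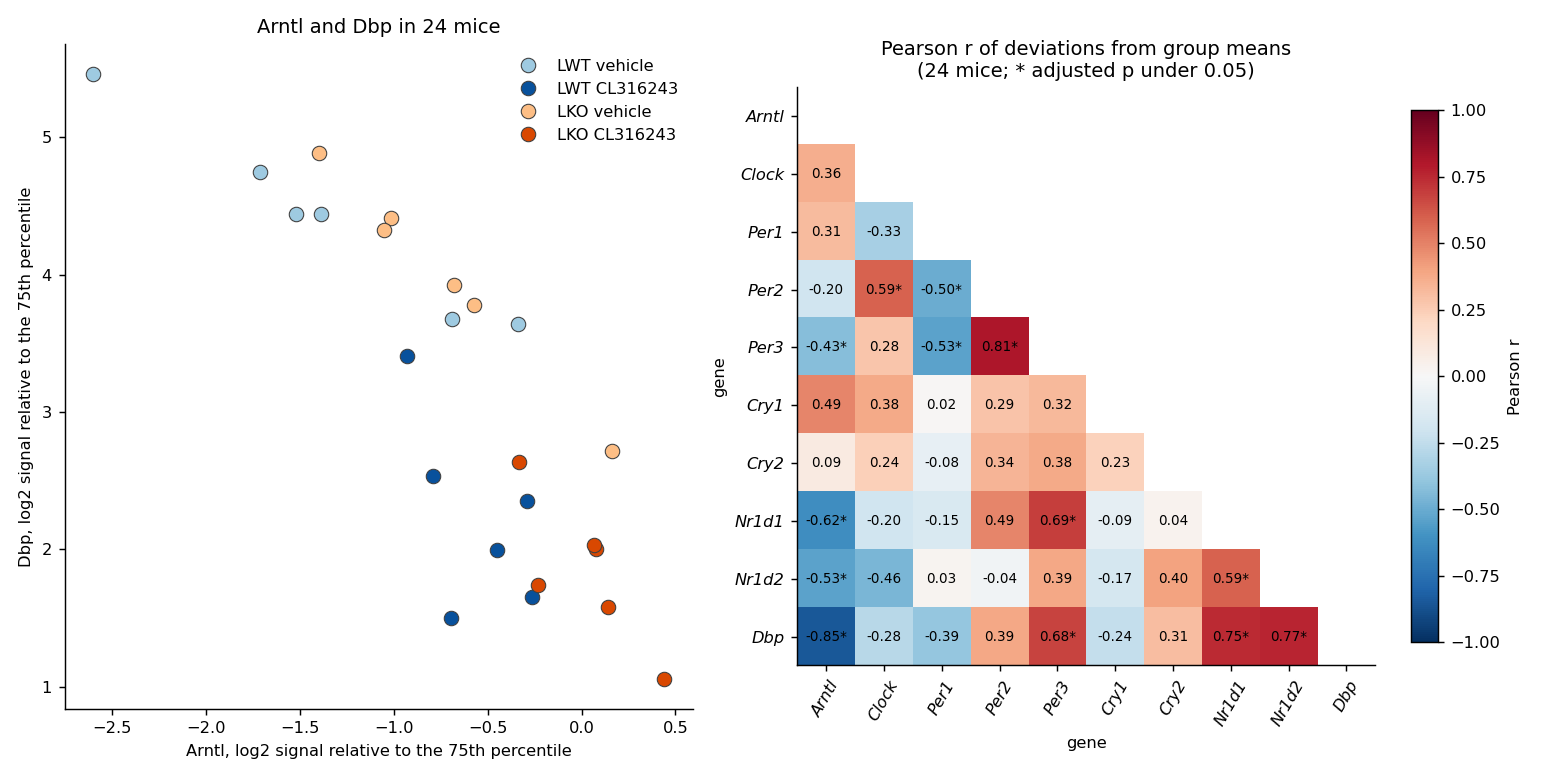
Left, Dbp against Arntl in 24 mice, both as log2 signal minus the 75th percentile of the array, coloured by group; right, Pearson r between deviations from group means for all 45 pairs of clock genes, with an asterisk where the adjusted permutation p is under 0.05. Dbp falls as Arntl rises within groups as well as between them (r = -0.85), and most of the positive pairs lie among Dbp, Nr1d1, Nr1d2 and Per3.

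Beyond the 10 genes, the genes most like 4 of them in these deviations were listed over 13879 genes and 24 mice, as a description without a test. For Arntl the closest was Leo1 (r = 0.90), then Cdkn1a (0.73) and Rasgrp4 (0.72), and the most opposed was Ap1g2 (-0.81), then Wdr45 (-0.78) and Casp6 (-0.76). For Dbp the closest were Fgfrl1 (0.87), Slc7a4 (0.84) and Patz1 (0.84), with Impdh2 (-0.79), Odc1 (-0.78) and Ocstamp (-0.78) opposed. Nr1d1 was closest to Tef (0.82), which encodes another PAR bZIP factor, then Unc93a (0.81) and Edc3 (0.80), and most opposed to Ap1g1 (-0.78), Ddc (-0.77) and Nck1 (-0.76). Per1 was closest to Errfi1 (0.87), Pim3 (0.85) and Yod1 (0.82), and most opposed to Zfp316 (-0.81), Rufy3 (-0.80) and Tmbim1 (-0.79).

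The other components of the clock, such as the ROR activators, the kinases and ubiquitin ligases that act on PER and CRY, and the remaining PAR bZIP genes, were counted as a list of 22, of which 19 were tested (Npas2, Bhlhe41 and Rorb did not pass the filter). In LWT 5 rose, 6 fell and 8 were not called, with a median of -0.24; in LKO 8 rose, 7 fell and 4 were not called, with a median of 0.17. Of all genes, 38.3% were called in LWT and 40.3% in LKO, with medians of 0.01 and 0.03. Nfil3, which encodes a D-box repressor that opposes DBP, rose by 1.12 in LWT (adjusted p = 0.021) and 1.69 in LKO (adjusted p = 0.0011). The LWT call of Nfil3 was lost without LWT vehicle replicate 1 or 4 or LWT CL316243 replicate 1 or 3 (0.98 to 0.995, adjusted p = 0.053 to 0.057). Of the other PAR bZIP genes, Tef fell by 0.72 in LWT and 0.68 in LKO, and Hlf fell by 1.14 in LKO (adjusted p = 0.0021) with a difference of -0.49 in LWT (adjusted p = 0.17).

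Btrc, a ubiquitin ligase subunit that targets PER proteins, fell by 1.07 in LWT and 1.11 in LKO (adjusted p = 0.00039 and 0.00029). With normexp background these differences of Btrc were -0.53 and -0.47, both still called. Ciart, a repressor of the ARNTL and CLOCK dimer, fell by 1.29 in LKO (adjusted p = 0.011) and had a difference of -0.28 in LWT. Bhlhe40, an E-box repressor, was the only gene of the 19 called for the interaction, a count near the 5.41% of all genes. Its difference was -0.26 in LWT and 0.66 in LKO (interaction 0.92, adjusted p = 0.029). Under vehicle 0 of 19 differed between genotypes, against 1.18% of all genes. Under CL316243 3 were higher and 1 lower in LKO, against 7.74% and 8.17% of all genes.

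Targets of the output factors did not move as 1 block. Of 5 genes listed as PAR bZIP targets, 1 rose in LWT and none fell, while in LKO 1 rose and 1 fell, against 38.3% and 40.3% of all genes called. Cyp2b10, a drug-metabolising cytochrome P450, rose by 1.92 in LKO (adjusted p = 0.023) and had a difference of 1.46 in LWT (adjusted p = 0.086). Its LKO call was lost without replicate 4 or 6 of the vehicle mice or replicate 2 or 5 of the treated mice (1.59 to 1.74, adjusted p = 0.054 to 0.065). Por rose by 0.80 in LWT, and Nr1i3, which encodes the nuclear receptor CAR, fell by 0.995 in LKO.

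Of 4 genes listed as targets that NR1D1 represses, 3 were tested. All 3 rose in LWT and 2 of them in LKO, where 18.9% and 20.9% of all genes were called higher. The list was chosen with earlier results of these data known, so these counts are not separate evidence. Insig2, a brake on sterol synthesis, rose by 2.99 in LWT and 2.39 in LKO (adjusted p = 3.9e-09 and 2.7e-07). Elovl3, a fatty acid elongase, rose by 1.74 in LWT (adjusted p = 0.00050) and had a difference of 0.05 in LKO. Under CL316243 it was lower in LKO than in LWT by 1.83 on the log2 scale (adjusted p = 0.00077), though the interaction of -1.69 did not pass (adjusted p = 0.051). Nfil3, given above, is the third.

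Among 12 other rhythmic liver genes, 3 rose and 4 fell in LWT, and 1 rose and 4 fell in LKO. Against 38.3% and 40.3% of all genes called, the LKO count is near the background. Usp2, a clock-controlled deubiquitinase, fell by 2.03 in LWT and 1.31 in LKO (adjusted p = 0.00012 and 0.0058). Upp2, a uridine phosphorylase, fell by 2.53 and 1.44 (adjusted p = 1.9e-05 and 0.0043), and Cirbp, a cold-inducible RNA-binding protein, by 0.94 and 1.08 (adjusted p = 0.011 and 0.0039). Nampt, the rate-limiting enzyme of NAD salvage, fell by 0.82 in LWT and had a difference of 0.38 in LKO, with an interaction of 1.2 (adjusted p = 0.0095). Avpr1a, a vasopressin receptor, rose by 1.16 in LKO and had a difference of -0.36 in LWT (interaction 1.53, adjusted p = 0.0024). Gys2, liver glycogen synthase, was the third gene of this list called for the interaction (-0.59, adjusted p = 0.029). These are 3 of 12 genes, against 5.41% of all genes, in a list chosen with earlier results of these data known.

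**Figure D5:**
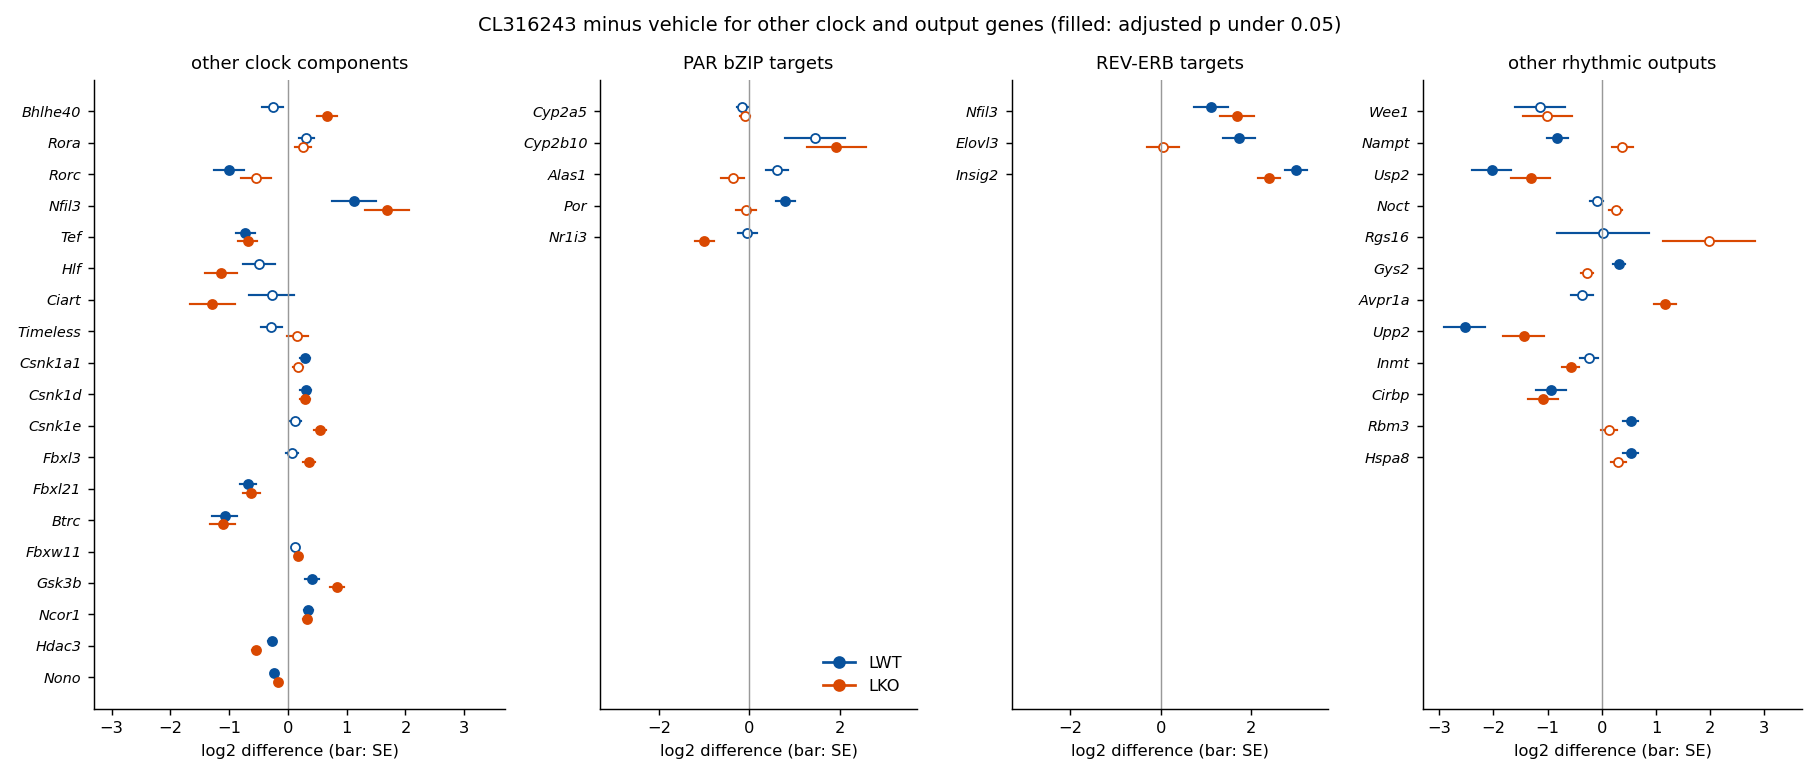
CL316243 minus vehicle, as a log2 difference with its standard error, for 19 other clock components, 5 PAR bZIP targets, 3 NR1D1 (REV-ERB) targets and 12 other rhythmic liver genes, in LWT and LKO; filled points have an adjusted p under 0.05. Nfil3 and Insig2 rose and Tef, Btrc, Usp2, Upp2 and Cirbp fell in both genotypes.

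The 3 slides each held 2 mice of every group, so the responses could also be read within a slide. Dbp fell on each slide, by 1.47, 2.97 and 2.04 in LWT and by 1.72, 2.31 and 2.46 in LKO. For Per3 the differences were -0.72, -1.85 and -1.90 in LWT and -2.14, -0.97 and -1.29 in LKO. Arntl was higher on each slide, by 0.47 to 1.08, and Per2 lower on each, by 0.19 to 1.45 on the log2 scale. The genotype difference of Clock under CL316243 was -0.85, -0.39 and -0.35, and that of Cry1 0.34, 0.93 and 0.68. On slide 1, which holds LKO CL316243 replicate 3, the LKO minus LWT differences of Per2 and Per3 under CL316243 were -0.65 and -1.85, against 0.95 and 0.83 on slide 2 and 0.80 and 0.34 on slide 3, the opposite sign.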

How the data were processed

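RNA of 24 livers, 1 per mouse, was labelled with Cy3 and hybridised to single-colour arrays on 3 slides of 8, with 2 mice of each group per slide. Per the file headers, the authors' scanner files hold processed signal intensities made by Agilent Feature Extraction 10.10.1.1, with probe positions in build mm9. The deposited series table holds log2 values that equal quantile-normalized log2 median signals for 99.3% of 31367 probes to within 0.01, and was used as an alternative.

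Here log2 processed intensity minus the array's 75th percentile (397.4 to 577.7 intensity units before log2) was used. A probe was kept when at least 4 of the 6 arrays in some group read it well above background, and the kept probe with the highest mean represented its gene. limma 3.58.1 in R 4.3.3 fitted all 4 groups together without a block, with Benjamini-Hochberg adjustment over 21331 genes or 32037 probes. The p-values measure the spread between mice. The script was tested on simulated data. Array number limits the precision: over all genes the median standard error was 0.13, and 0.19 for an interaction. Among the clock genes it ran from 0.10 for Cry2 to 0.41 for Nr1d1. For an interaction it ran from 0.15 for Cry2 to 0.58 for Nr1d1.

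The members and lists were chosen with earlier results of these data known. List genes were named when called with an absolute log2 difference of at least 1; Bhlhe40, Por, Nr1i3 and Gys2 were named after their values were seen, and so were the list values of Tef, which the likeness rule also names. For likeness, the 3 highest and 3 lowest correlations were named. Covariation p-values used 100000 permutations within groups. Alternatives changed the background correction, scaling, filter, probe rule, blocks, weights and samples.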

Additional observations from a re-analysis of the deposited data

Results flagged for a closer look

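In 40 groups of 6 values (10 genes in 4 groups), Dixon's ratio marked 4 values as far from the rest of their group. The marked values of Per2 and Per3 came from the same mouse, so they are not separate. Chance marks about 1 group in 20. Per2 in LKO CL316243 replicate 3 was 0.87, and the nearest mouse of that group stood at 2.33. Per3 in the same mouse was -3.07, with the nearest at -1.29. Clock in LWT vehicle replicate 2 was 1.53, with the nearest at 1.24. Cry2 in LWT vehicle replicate 5 was 3.99, with the nearest at 3.79. Values without LKO CL316243 replicate 3 are given above for Per2 and Per3.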

How the results depend on the processing

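The falls of Dbp and Per3 in both genotypes, the fall of Per2 in LWT, and the differences of Nr1d1, Clock and Cry1 under CL316243 kept their direction and call in all 12 alternatives and without each of 24 mice, though normexp background gave smaller differences for Nr1d1 (-1.18) and Cry1 (0.39). With no filter on dim probes, 3 clock genes were called in LWT and 2 in LKO. Leaving out mice, the counts ran from 3 to 6 in LWT, 2 to 5 in LKO and 0 to 1 for the interaction. The interaction count was 1 with the mean of kept probes (Clock, -0.56, adjusted p = 0.021) and with array weights (Nr1d1, -1.48, adjusted p = 0.047). Nr1d1's LKO fall lost its call with normexp background (-0.47, adjusted p = 0.080), with the series table (-0.62, 0.068), with array weights (-0.82, 0.053) and in 3 other settings. Arntl's LWT rise lost its call with the mean of kept probes (0.39, adjusted p = 0.284), and so did its LKO rise (0.58, 0.100). Clock's LWT rise lost it with quantile normalization (0.35, 0.054) and with the series table (0.33, 0.051). Some calls were gained. Per1 in LKO was called in a fit of the LKO groups alone (0.43, adjusted p = 0.0495), and Cry1 in LKO with normexp background (0.26, 0.042). Arntl LKO minus LWT under CL316243 was 0.60 and not called in the main fit (adjusted p = 0.176). In a fit of the CL316243 groups alone it was called (adjusted p = 0.027).

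Uncalled values near 0 changed sign. With array weights these were Cry1 in LWT (0.037), the Dbp interaction (0.061) and Per3 LKO minus LWT under CL316243 (0.11). With the mean of kept probes they were Clock in LKO (0.10), the interactions of Arntl (0.19) and Per3 (-0.14), and under vehicle Per2 (0.054) and Cry2 (-0.017). The Arntl interaction was 0.074 with normexp and 0.033 with the series table. Leaving out mice, Cry1 in LWT ran from -0.23 to 0.015, and the interactions of Arntl from -0.23 to 0.23, Per3 from -0.19 to 0.37 and Dbp from -0.26 to 0.23. Under vehicle, LKO minus LWT ran from -0.15 to 0.047 for Clock and -0.087 to 0.037 for Per2, and under CL316243 from -0.44 to 0.12 for Per3.

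Mice of the same number did not deviate together (median correlations of -0.04 to 0.14), so the numbers were not taken as pairs. The replicate block added 1 call, Per2 in LKO (-0.61, adjusted p = 0.022), and changed no other. For covariation, 7 alternatives chosen after seeing the data gave 10 to 17 pairs past the threshold. The cause of these changes was not tested.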
